A study of Mus musculus with 18 samples.

Results

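Gene expression in colorectal tissue was compared between 6 GF-AOM libraries and 6 Control libraries, which are 12 of the 18 libraries of the series and were taken by their group label alone. All 10897 genes of the deposited table entered the comparison, each with an FPKM of at least 1 in 15 or more of the 18 libraries. The remaining 6 libraries, named GF-AOMS, came from mice that were also exposed to cigarette smoke, and served only to estimate the spread between libraries. The mice were male C57BL/6J, an inbred laboratory strain, 10 weeks old. Total RNA from the colon had an integrity number of at least 7, ribosomal RNA was removed, and strand-specific libraries were sequenced in a single labelled batch. The labels do not say whether a library holds tumour, the mucosa beside it or the whole wall, and no label ties a library to a named mouse. The p-values therefore cover only how far these libraries varied, which may in part be technical.

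The labels give Control under 2 readings. In the sample characteristics, Control mice are wild type, specific pathogen-free and carry colorectal cancer induced by azoxymethane (AOM), and GF-AOM mice are germ-free with the same treatment, a description that the series design shares. Under this reading the groups differ by the microbiota. In the treatment protocol, Control is a normal group and GF-AOM is the AOM model, so that the groups differ by AOM. The growth protocol houses the mice in a specific pathogen-free facility and mentions no germ-free isolator. A difference between the groups can therefore follow from germ-free rearing, from AOM or from both, and these cannot be told apart with these libraries.

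AOM is an alkylating carcinogen that is activated by cytochrome P450 enzymes, methylates DNA and gives tumours of the colon in which Wnt signalling is active. In mice raised without microbes the intestine is known to hold few plasma cells that make immunoglobulin A, low levels of microbe-induced epithelial antimicrobial genes and a low tone of interferon-stimulated genes. The colon also changes along its length. Hox genes of the posterior end, Hoxa13 and Hoxb13 among them, are expressed in the distal colon and rectum, whereas Car1, a carbonic anhydrase, and a number of genes of drug and lipid metabolism are higher towards the caecum.

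The total of counts per library was 49898048 to 79233656 in Control and 50750360 to 65362844 in GF-AOM. The epithelial markers Epcam, Vil1, Krt8, Cdh17 and Cdx2 were present in all 12 libraries, with Epcam at 875 to 1317 CPM, median 1150, in Control and 627 to 934 CPM, median 721, in GF-AOM. Counts from ribosomal protein genes made up 8.66% ± 3.9 of Control and 14.8% ± 5.02 of GF-AOM libraries (SD, n = 6; two-sided exact permutation test, p = 0.039, adjusted 0.0974 over 5 measures). The slope of log2 expression on log2 gene length, a measure that falls when short transcripts gain, was 0.603 ± 0.103 and 0.48 ± 0.113 (p = 0.0823, adjusted 0.137, by the same exact test). The share of counts from the mitochondrial genome was 4.59% ± 0.722 in Control and 3.15% ± 0.494 in GF-AOM, with 4 of 6 GF-AOM libraries below every Control library (p = 0.00649, adjusted 0.0325, exact test), which alone passed among the 5 measures. GF-AOM ranged from 2.48% to 3.75%. Control replicates 1 and 2, set apart below by position markers, held 3.49% and 4.42%, so replicate 1 lay within the GF-AOM range.

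Position markers split the Control libraries. In CPM (counts scaled to the size and composition of the library), Hoxa13 lay at 42 and 38.7 in replicates 1 and 2 of Control. The other 4 Controls held 0 to 3.05 CPM, and GF-AOM ranged from 34.5 to 53.5 CPM, median 40.4. Hoxb13 lay at 122 and 330 CPM in the same pair of Controls, at 2.43 to 2.65 CPM in the other 4, and at 43.3 to 190 CPM, median 132, in GF-AOM. Replicates 1 and 2 thus sat within the GF-AOM range or above it for both genes, and the other 4 far below it. Hoxa10 showed the same split, at 63.6 and 70.7 CPM against 7.25 to 13.9 CPM within Control and 57.6 to 81.9 CPM, median 72, in GF-AOM. Hoxb9 ran the other way, at 36.1 and 30.2 CPM against 66.3 to 81.7 CPM, with 20.6 to 53.6 CPM, median 35.5, in GF-AOM. Control replicates 1 and 2 were above 10 CPM in both Hoxa13 and Hoxb13, as was every GF-AOM library, and are called the high-Hox Controls hereafter. For a gene, the difference is a log2 ratio of GF-AOM to Control ± SE, given against all 6 Controls and then against these 2, from a model in which the other 4 form a group of their own. Where no SE is printed, it lay between 0.10 and 1.16 against all Controls (median 0.26) and between 0.12 and 1.92 against the high-Hox Controls (median 0.32), over the 204 genes named. The split rests on 2 genes and 2 libraries, so tissue position cannot be told apart from other traits of these 2 libraries.

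**Figure D1:**
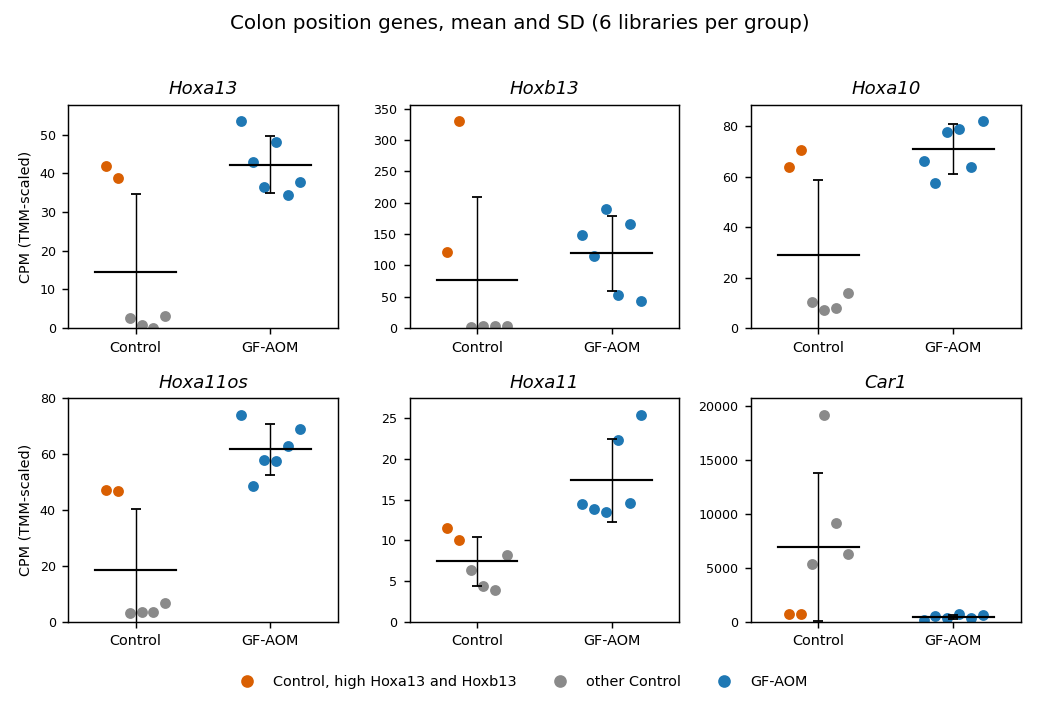
Expression of 5 Hox cluster genes and Car1 in each library (vertical axis, CPM, starting at 0; horizontal axis, group), with the group mean as a line and the SD as a bar. The high-Hox Controls (orange) lie with GF-AOM (blue) for Hoxa13 and Hoxa10 and just below it for the antisense transcript Hoxa11os, and the 4 other Controls (grey) lie far from both.

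Of 10897 genes, 1 passed an adjusted p of 0.05 (0.00918%) by edgeR's quasi-likelihood test. Mcf2l (ENSMUSG00000031442, chromosome 8, 12873806 to 13020905 in the deposited table, whose positions are those of build GRCm38), which encodes a guanine nucleotide exchange factor of small GTPases, rose. It lay at 54 to 79.6 CPM, median 66.3, in Control and at 93.3 to 113 CPM, median 104, in GF-AOM. Its log2 difference was 0.61 ± 0.10, adjusted p = 0.0495, against all Controls and 0.51 ± 0.14 against the high-Hox Controls, and every GF-AOM library lay above every Control library. DESeq2 called it as well, but the call by edgeR was lost without any 1 of 9 of the 12 libraries, all but Control replicates 1 and 2 and GF-AOM replicate 4, with adjusted p from 0.0504 to 0.16. The call by edgeR was also lost in the fit of these 12 libraries alone (adjusted p = 0.141). Leaving out any 1 GF-AOMS library except replicate 2 lost it too, with edgeR adjusted p from 0.0596 to 0.0948.

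Many more genes lay near the threshold. At an unadjusted p under 0.05 there were 1713 genes (15.7%), 652 higher (5.98%) and 1061 lower (9.74%) in GF-AOM, where 544.9 would be expected if nothing differed. DESeq2 on the same counts called 284 of the 10677 genes for which it gave an adjusted p (2.66%), 69 higher (0.646%) and 215 lower (2.01%). The count by edgeR moved with the set of Controls. Against the 4 other Controls 699 genes passed (6.41%), 224 higher (2.06%) and 475 lower (4.36%), while against the high-Hox Controls 1 gene passed (0.00918%) and 344 had an unadjusted p under 0.05 (3.16%), 182 higher (1.67%) and 162 lower (1.49%). Leaving out Control replicate 2 gave 356 calls and leaving out replicate 1 gave 45. The groups of Controls differ in size as well, 4 libraries against 2, so these counts do not show that the effects differ.

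By sign alone 49.5% of genes were higher and 50.5% lower against all Controls, and 52.3% and 47.7% against the high-Hox Controls. How far the differences held was read from their size. Of the 1713 genes, 901 (52.6%) kept the sign and at least 50% of their size against the high-Hox Controls, against 46.9% of all genes, and 183 had the other sign. The median size went from 0.51 to 0.25 on the log2 scale. Among genes higher in GF-AOM 441 of 652 (67.6%) did so, and among genes lower in it 460 of 1061 (43.4%), a gap that was not tested. These counts share the GF-AOM libraries and 2 of the Controls and are descriptions. In 83 genes (0.762%) the CPM values of the 6 GF-AOM libraries did not overlap the 6 Control libraries, 33 higher (0.303%) and 50 lower (0.459%), and 73 of the 83 kept at least 50% of their size. Both high-Hox Controls lay outside the GF-AOM range on the same side in 636 genes (5.84%), 330 higher (3.03%) and 306 lower (2.81%) in GF-AOM. With 2 Controls in place of 6 a gene separates far more easily by chance, so the 636 cannot be set against the 83 and do not show clearer separation. The share of 73 in 83 is partly fixed by the choice, since such genes lie outside the GF-AOM range in the high-Hox Controls by definition.

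Among the higher genes without overlap, several had the same size under both sets of Controls. Rspo3, a secreted R-spondin that amplifies Wnt signalling at the crypt base, lay at 1.78 to 4.31 CPM, median 3, in Control and 4.97 to 8.26 CPM, median 6.03, in GF-AOM, a difference of 1.09 ± 0.27 that was 1.09 ± 0.41 against the high-Hox Controls. Tspan4, a tetraspanin of the cell membrane, lay at 12.1 to 20.5 CPM, median 16.7, in Control and 22.5 to 52.1 CPM, median 33.6, in GF-AOM and differed by 1.07 ± 0.27 and 1.19 ± 0.42. The GF-AOM libraries were higher throughout for both, although neither passed adjustment (adjusted p = 0.0987 for Rspo3 and 0.0987 for Tspan4). Ercc5, an endonuclease of nucleotide excision repair, was tightly spaced, at 11.1 to 12.8 CPM, median 11.8, in Control and 13.3 to 18.8 CPM, median 14.7, in GF-AOM (0.36 ± 0.10; 0.39 ± 0.15 against the high-Hox Controls). Smaller differences with no overlap were seen in the RNA-modifying enzymes Nat10 (0.35 and 0.28) and Pus1 (0.36 and 0.27) and in the oxygen sensor Egln2 (0.35 and 0.37). Rab32, a small GTPase of lysosome-related organelles, also did not overlap (0.91 ± 0.19), but its distance shrank to 0.32 once only replicates 1 and 2 (31.1 and 33.7 CPM) were the reference. Of the 33, 5 were immunoglobulin variable segments. Tspan4, Nat10, Pus1 and Egln2 were chosen after their values were seen, as were others where stated.

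**Figure D2:**
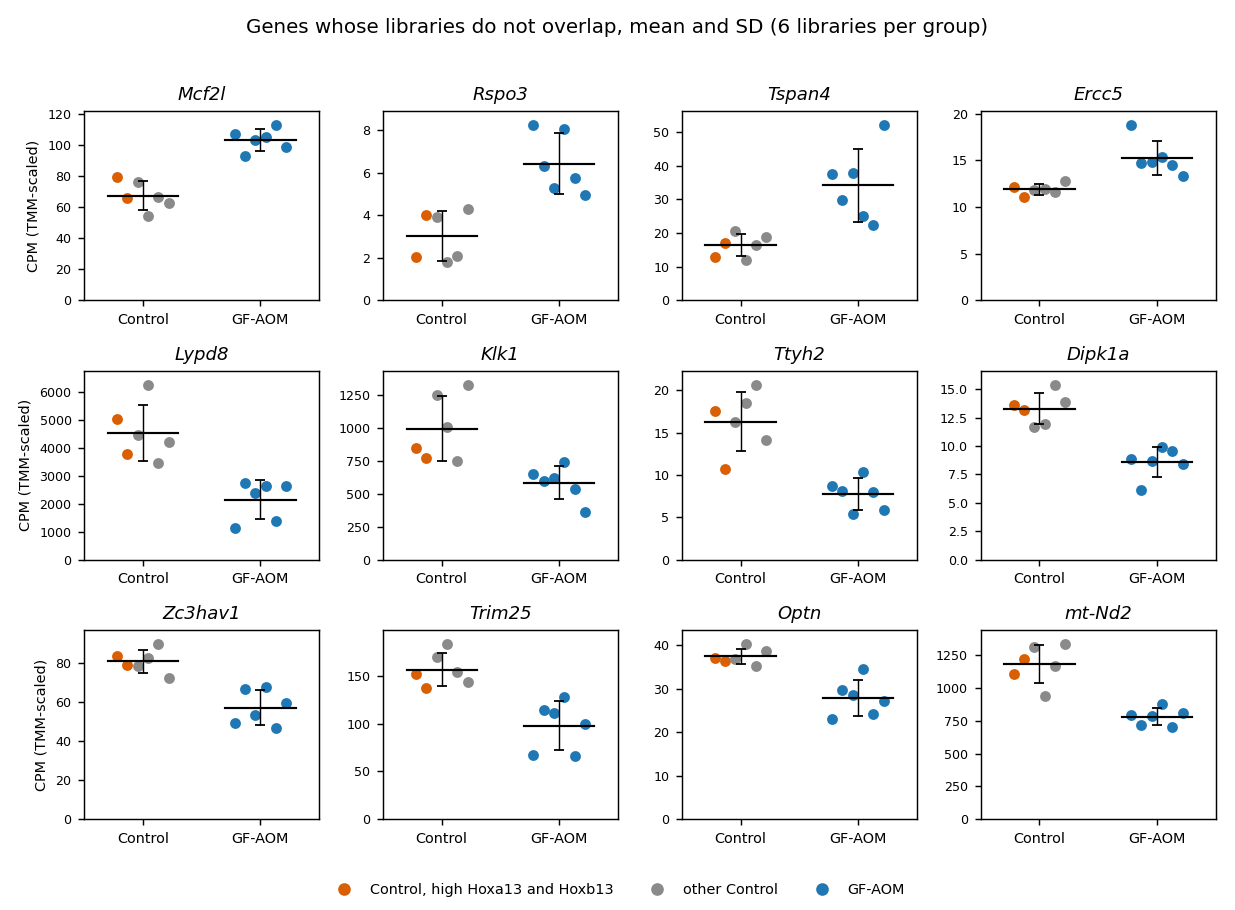
The 12 genes plotted are ones whose 6 GF-AOM libraries (blue) do not overlap the 6 Control libraries (orange, high-Hox; grey, other), in CPM by group with mean and SD. The upper row holds genes higher in GF-AOM and the other rows genes lower in it, and the high-Hox Controls stay on the Control side in every panel.

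Among the lower genes without overlap Lypd8 had a similar size in both comparisons. It encodes a highly glycosylated protein of colonocytes that keeps flagellated bacteria off the inner mucus layer. It lay at 3448 to 6252 CPM, median 4339, in Control and 1143 to 2732 CPM, median 2503, in GF-AOM, with 5015 and 3777 CPM in the high-Hox Controls. The differences were -1.08 ± 0.24, adjusted p = 0.0831, and -1.03 ± 0.33, so all GF-AOM libraries held less of it whichever Controls were used. Ttyh2, a member of the tweety family, lay at 10.7 to 20.7 CPM, median 17, in Control and 5.41 to 10.4 CPM, median 8.07, in GF-AOM and differed by -1.07 ± 0.21 and -0.87 ± 0.27. Klk1, a tissue kallikrein of goblet cells, lay at 753 to 1331 CPM, median 930, in Control and 364 to 740 CPM, median 611, in GF-AOM (-0.76 ± 0.19 and -0.47 ± 0.25). Dipk1a (-0.63 and -0.65), the diamine oxidase Aoc1 (-1.12 and -0.81) and the autophagy receptor Optn (-0.42 and -0.40) shared the pattern and were chosen after their values were seen. Selenbp1, a methanethiol oxidase of the differentiated epithelium, and its relative Selenbp2 differed by -1.71 and -2.06, and by -0.71 and -0.70 in the narrower comparison. The 2 Selenbp genes are close copies, so reads may be split between them.

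Genes of surface colonocytes, the absorptive cells at the top of the crypt, lay lower in GF-AOM under both sets of Controls. Of 29 measured members 25 were lower in GF-AOM, 19 of them at an unadjusted p under 0.05 and none higher at that level (9.74% and 5.98% of all genes), and the median was -0.66 against 0.00 over all genes. Against the high-Hox Controls 26 were lower and the median was -0.45, with 4 at that level (1.49% of all genes). No member passed by edgeR over all genes, and DESeq2 called 8 (2.66% of the genes for which it gave an adjusted p). The brush border cadherins Cdhr5 (279 to 777 CPM, median 499, in Control and 134 to 312 CPM, median 201, in GF-AOM) and Cdhr2 (117 to 425 CPM, median 268, in Control and 85.7 to 166 CPM, median 103, in GF-AOM) hold microvilli together. Their differences were -1.34 ± 0.27 and -1.28 ± 0.27, and -0.81 and -0.73 against the high-Hox Controls. Lower values in both comparisons were also found for the mucin Muc13 (-0.61 and -0.45, no overlap), the adhesion protein Tmigd1 (-1.73 and -0.50) and the meprin subunit Mep1a (-1.53 and -0.60), named after their values were seen. Not every surface gene followed. The chloride exchanger Slc26a3 (0.22, then -0.08) and the water channel Aqp8 (0.39, then -0.58) lay near 0 with wide ranges, Aqp8 at 9.3 to 379 CPM, median 157, in Control and 105 to 373 CPM, median 206, in GF-AOM, and Car4 was at -0.07 and then -0.58.

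Car1, also in this list, depended on the choice of Controls. It lay at 5335 to 19166 CPM in the 4 Controls with little Hoxa13, at 689 and 728 CPM in the high-Hox pair, and at 137 to 693 CPM, median 443, in GF-AOM. The difference of -3.93 ± 0.70, adjusted p = 0.0638, became -0.65 ± 0.54. The 4 Controls with little Hoxa13 thus carried most of it, and GF-AOM overlapped the high-Hox Controls.

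Genes of bile acid, drug and hormone metabolism were lower with all Controls as reference and centred near 0 with the high-Hox ones. Of 62 members 49 were lower, 37 at an unadjusted p under 0.05 (9.74% of all genes were), and the median was -0.61. DESeq2 called 21 (2.66% of the genes for which it gave an adjusted p). With the high-Hox Controls 29 were lower, 33 higher, and the median was 0.06. Cyp2c55, a cytochrome P450 of the colon, lay at 301 and 147 CPM in the high-Hox Controls, at 929 to 3224 CPM in the other 4 and at 72.1 to 432 CPM, median 211, in GF-AOM (-2.67 ± 0.63, then 0.04 ± 0.61). Ugdh, which makes the sugar donor for glucuronidation, went from -1.81 to -0.11 and the drug efflux pump Abcb1a from -1.79 to -0.43. The carboxylesterase Ces2a differed in part. It lay at 29 and 17.4 CPM in the high-Hox Controls, 50.5 to 185 CPM in the others and 5.69 to 25.2 CPM, median 11.9, in GF-AOM, a difference of -2.61 ± 0.46, adjusted p = 0.0638, and then -0.85 ± 0.43. Its neighbours in the family Ces2c (-1.69 and -0.54) and Ces2e (-1.52 and -0.18) and the glucuronosyltransferase genes Ugt1a7c (-0.86 and -0.52) and Ugt2b34 (-0.54 and -0.22) were named after their values were seen. These families hold close copies between which reads may be split.

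**Figure D3:**
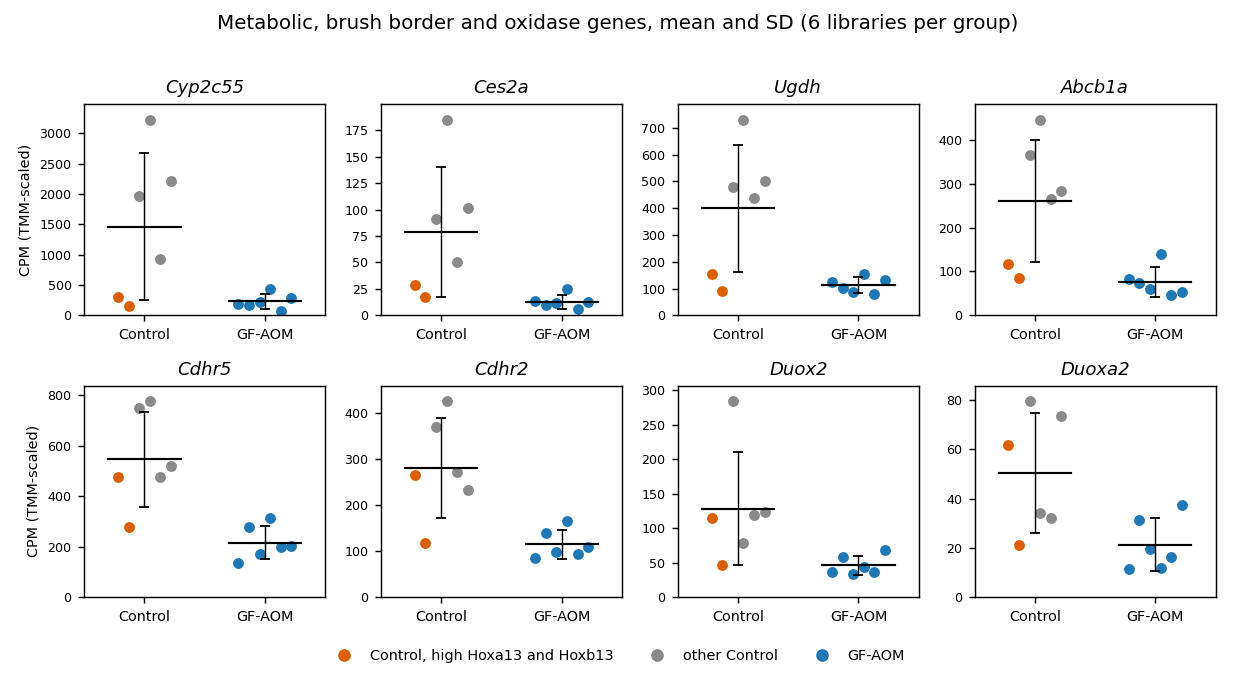
CPM per library of 4 metabolic genes, 2 brush border cadherins and the Duox2 and Duoxa2 oxidase pair, by group, with mean and SD. For Cyp2c55 and Ugdh the high-Hox Controls (orange) lie with GF-AOM (blue), whereas Ces2a and Cdhr5 were higher in at least 1 high-Hox Control than in any GF-AOM library.

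Lipid metabolism behaved likewise. Fatty acid oxidation and ketogenesis had 31 of 35 members lower, 17 at an unadjusted p under 0.05 (9.74% of all genes), and a median of -0.34 that was -0.06 against the high-Hox Controls. The long-chain dehydrogenase Acadvl (-0.51, then -0.24) and the carnitine enzyme Cpt2 (-0.69, then -0.33) were among its members with the smallest p. Among 32 peroxisomal genes 22 were lower (median -0.19, then -0.06), led by Gstk1 (-1.17, then -0.29) and the fatty acid transporter Slc27a4 (-0.82, then -0.08). Phyh, which starts the breakdown of phytanic acid, did not overlap between groups (-0.39, then -0.22) and was chosen after its values were seen. Of the lipid synthesis genes, Scd1 stood at -1.25 and then -0.28, Elovl6 at -0.74 and then -0.28 and Acaca at -0.66 and then -0.26, within a list whose median was -0.10. Targets of the oxidant sensor NRF2 had a median of -0.29 (22 of 27 lower), then -0.12, with Taldo1 at -0.52 and then -0.37 and Cat at -0.50 and then -0.16 beside Ugdh. Retsat, which saturates retinol, was at -0.71 ± 0.15 and then -0.26.

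Fat cell genes showed the same split. All 14 measured members of the adipose list were lower in GF-AOM, 11 at an unadjusted p under 0.05 (9.74% of all genes), and their summed level was 703 to 2040 CPM in Control and 626 to 721 CPM in GF-AOM. The median was -0.84 and became 0.07 against the high-Hox Controls. Cidec, a lipid droplet protein, lay at 7.07 and 3.48 CPM in the high-Hox Controls, 18.5 to 63.2 CPM in the other 4 and 4.66 to 8.42 CPM, median 5.04, in GF-AOM, and the lipoprotein lipase Lpl followed (from -1.70 to 0.06). Gpd1 (-1.20, then -0.04) and Pck1 (-0.76, then -0.25), enzymes that fat cells share with other tissues, had the smallest p, and the fat cell marker Fabp4 was at 44.2 to 224 CPM, median 70.1, in Control and 34.6 to 102 CPM, median 59.1, in GF-AOM. The part of fat cells in the lower metabolic genes was not tested. In bulk tissue, fewer cells of a type and less RNA per cell cannot be told apart.

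Ion and nutrient transporters were lower by less, with 18 of 28 lower and a median of -0.14 under all Controls and -0.12 under the high-Hox Controls. The zinc importer Slc39a4 was at -0.87 and then -0.44, the sodium-proton exchanger Slc9a2 at -0.83 and then -0.18 and the glucose transporter Slc5a1 at -0.42 and then -0.21. Slc30a1, which exports zinc at the basal side, was among the 12 lower genes with the smallest p (-0.64 ± 0.13, then -0.48 ± 0.18). Flrt3, a guidance receptor of the cell surface, lay at 12.9 to 33.4 CPM, median 31.4, in Control and 6.78 to 14.3 CPM, median 11.1, in GF-AOM (-1.29 ± 0.27, then -0.57 ± 0.31).

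Junction genes were lower in 36 of 44 members, 16 at an unadjusted p under 0.05 (9.74% of all genes). The median was -0.35, -0.17 against the high-Hox Controls and -0.10 with the length slope as a covariate. F11r, the junctional adhesion molecule A, did not overlap and had a similar size in both comparisons, at 157 to 184 CPM, median 162, in Control and 123 to 141 CPM, median 127, in GF-AOM (-0.37 ± 0.11, then -0.41 ± 0.15). Claudin Cldn4 (-1.49, then -0.55) and desmoglein Dsg2 (-1.11, then -0.42) shrank. The keratins Krt7 (-0.50, then -0.12), Krt19 (-0.56, then -0.53) and Krt20 (-0.66, then -0.58) belonged to a list of 6, of which 5 were lower. General epithelial markers were lower as well, Epcam by -0.53 ± 0.16 and Vil1 by -0.69 ± 0.21, then -0.40 and -0.59. Whether the share of epithelium in the tissue bears on these lists was not tested.

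Among the other epithelial cells, goblet cell genes had 21 of 31 members higher and a median of 0.13, then -0.08. The mucin Muc2 lay at 3215 to 9653 CPM, median 5557, in Control and 2589 to 5961 CPM, median 4362, in GF-AOM (-0.43 ± 0.26, then 0.08 ± 0.34). Sytl2, which tethers secretory granules, was at 0.54 and then 0.70, while the mucin glycosyltransferase Gcnt3 turned from -1.06 to 0.71. Retnlb, a resistin-like protein of goblet cells, spanned 916 to 4904 CPM, median 1931, in Control and 1055 to 12826 CPM, median 5776, in GF-AOM. Enteroendocrine cells were represented by Chga and Chgb, the chromogranins of their granules. Chga lay at 46 and 32.1 CPM in the high-Hox Controls, 69.7 to 184 CPM in the other 4 and 20.5 to 39.5 CPM, median 34.2, in GF-AOM, so that -1.68 became -0.31. Chgb went from -1.67 to -0.41, and Resp18 from -1.07 to -0.61, in a list with 10 of 15 lower. Tuft cell genes were 6 of 8 higher, with the prostaglandin enzymes Hpgds at 0.43 and then 0.27 and Ptgs1 at 0.55 and then 0.64 and the leukotriene adaptor Alox5ap at 0.52 and then -0.02.

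Crypt and proliferation genes had small differences. The crypt base and Wnt target list had a median of -0.14 (-0.20 against the high-Hox Controls), with the Wnt transducer Ctnnb1 at -0.50 ± 0.16 and then -0.29 ± 0.22, the crypt receptor Cd44 at -0.61 and then -0.16, the feedback gene Axin2 at -0.43 and then -0.25 and Ifitm1 at 0.61 and then 0.49. Of the 13 Wnt ligands and modulators Rspo3 was described above, the receptor Fzd5 went from -0.98 to 0.13, and the coreceptor Ryk was at 0.28 and then 0.27. None of 36 proliferation genes had an unadjusted p under 0.05 in edgeR's test, and DESeq2 called none of them. Their median was -0.12, then -0.19, with 31 of 36 lower against the high-Hox Controls. Mki67 lay at 54.8 to 149 CPM, median 79.8, in Control and 49.3 to 106 CPM, median 61.9, in GF-AOM (-0.35 ± 0.31, then -0.27 ± 0.45), and H2az1 (0.46, then 0.03), Ccnb2 (-0.35, then -0.51) and Birc5 (0.33, then -0.11) had the smallest p. Differences of this size were not detectable over the spread between libraries.

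Genes that repair alkylation damage lay near 0, with a median of 0.05 over the 24 of 40 listed genes that were measured. The repair gene Mgmt was not among those measured. Of 24 genes of alkylation damage and DNA repair 1 had an unadjusted p under 0.05 (15.7% of all genes), the methylpurine glycosylase Mpg, which removes alkylated bases (15.1 to 23.1 CPM, median 19.3, in Control and 19.1 to 28.2 CPM, median 24.5, in GF-AOM; 0.33 ± 0.13, then 0.33 ± 0.19). Alkbh2, a dioxygenase that reverses base methylation, was at 0.49 and then 0.14 and the gap-filling polymerase Polb at 0.31 and then 0.20. Targets of p53 had a median of 0.01. The cell cycle inhibitor Cdkn1a lay at 105 to 285 CPM, median 179, in Control and 84.5 to 187 CPM, median 137, in GF-AOM (-0.34 ± 0.23, then -0.04 ± 0.32), Btg2 was at -0.31 and then -0.10, and Pmaip1, a promoter of apoptosis, went from -0.61 to -1.08 ± 0.23.

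Genes of epithelial defence against microbes gave no common direction, with 22 of 39 lower and a median of -0.19 that was -0.01 against the high-Hox Controls. Besides Lypd8, Duox2 was lower, the dual oxidase that makes hydrogen peroxide at the mucosal surface. It lay at 47.2 to 284 CPM, median 117, in Control and 33 to 68.5 CPM, median 39.9, in GF-AOM and differed by -1.48 ± 0.31, adjusted p = 0.0792, then -0.83 ± 0.38. Duoxa2, its maturation factor, lay at 21.3 to 79.5 CPM, median 47.9, in Control and 11.3 to 37.5 CPM, median 17.9, in GF-AOM and differed by -1.25 ± 0.34, then -0.97 ± 0.46. The pair lies head to head, with 673 bases between the RefSeq starts, and Control replicate 2 (47.2 and 21.3 CPM) lay within GF-AOM for both. Below the other 5 Controls lay all 6 GF-AOM libraries for Duox2 and 5 of 6 for Duoxa2. The antimicrobial lectins Reg3b and Reg3g had no common level in either group. Reg3b ran from 5.14 to 576 CPM in Control and from 12.7 to 843 CPM in GF-AOM, Reg3g from 2.28 to 197 and from 3.25 to 157 CPM. Control replicate 1 held the lowest value of both. Pla2g2a, a phospholipase gene chosen after its values were seen, was read as transcript only, and functional enzyme was not measured. Its transcript was higher in GF-AOM, at 1.72 to 33.6 CPM, median 6.63, in Control and 27.2 to 61.7 CPM, median 35.9, in GF-AOM (1.86 ± 0.51, then 0.75 ± 0.46). The fucosyltransferase Fut2 was at -0.22 and then 0.14. Cldn4, in this list as well, is given above.

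Interferon-stimulated genes were lower in GF-AOM by the same median under both sets of Controls, -0.38 and -0.40, and by -0.52 with the length slope in the model. Of 39 members 35 were lower, 9 at an unadjusted p under 0.05 (9.74% of all genes), and 34 were lower against the high-Hox Controls. The level varied among the GF-AOM libraries themselves, and the list sum ran from 2383 to 3318 CPM in Control and 1114 to 3293 CPM in GF-AOM. Rsad2, the antiviral enzyme viperin, lay at 14.1 to 24.2 CPM, median 21.6, in Control and 3.35 to 17.3 CPM, median 8.59, in GF-AOM, with 24.2 and 22.2 CPM in the high-Hox Controls (-1.12 ± 0.34, then -1.30 ± 0.45). Ifit1, which binds RNA without a methylated cap, lay at 74.1, 59.8, 52.4, 114, 55.1 and 79.9 CPM in Control replicates 1 to 6 and at 2.91, 57.5, 38, 38.2, 8.19 and 30.4 CPM in GF-AOM replicates 1 to 6. GF-AOM replicates 1 and 5 were the lowest for Ifit1, Oasl1 (9.23 and 12.5 CPM), Oasl2 (15.6 and 30.7 CPM) and the regulator Irf7 (50 and 91.9 CPM), and the other 4 lay higher for each of them. Without GF-AOM replicate 1 the list's median was -0.25. Parp14 was at -0.83 and then -0.40, and Ddx58, the RNA sensor RIG-I, at -0.59 and then -0.61. The antiviral genes Zc3hav1 and Trim25 lie outside the list, were chosen after their values were seen, and did not overlap between groups. Zc3hav1, which targets viral RNA for decay, lay at 72.1 to 89.5 CPM, median 80.5, in Control and 46.4 to 67.5 CPM, median 56.2, in GF-AOM (-0.50 ± 0.11, then -0.50 ± 0.15). Trim25, a ubiquitin ligase that modifies RIG-I, lay at 137 to 183 CPM, median 153, in Control and 65.8 to 128 CPM, median 105, in GF-AOM (-0.68 ± 0.18, then -0.57 ± 0.25). None of these genes passed adjustment by edgeR.

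The promoters of 2 members are shown because they share a word and both high-Hox Controls lay above every GF-AOM library for these genes. They are the 250 bases before the RefSeq start in build GRCm38.p6, with matches to GAAANNGAAA, the core of the interferon-stimulated response element, in capitals on either strand. Ifit1 is at chr19:34640639-34640888 on the plus strand and Rsad2 at chr12:26456453-26456702 on the minus strand.
Ifit1: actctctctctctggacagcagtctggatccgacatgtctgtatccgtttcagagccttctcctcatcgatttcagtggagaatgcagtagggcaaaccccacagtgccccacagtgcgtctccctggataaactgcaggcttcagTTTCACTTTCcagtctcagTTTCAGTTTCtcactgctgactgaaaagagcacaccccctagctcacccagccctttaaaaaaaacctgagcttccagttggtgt
Rsad2: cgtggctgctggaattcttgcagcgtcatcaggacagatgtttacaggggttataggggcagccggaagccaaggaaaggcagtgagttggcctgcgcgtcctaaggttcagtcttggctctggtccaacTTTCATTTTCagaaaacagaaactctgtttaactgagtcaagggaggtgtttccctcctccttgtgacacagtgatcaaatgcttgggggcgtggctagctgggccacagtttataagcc
Of the 39 members, 30 matched the RefSeq table by symbol. The word was in 20 of their 34 promoter windows of 300 bases (58.8%), and in 3.44% of all 32851 windows. It was chosen after the values were seen, and a match is a description of the sequence.

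**Figure D4:**
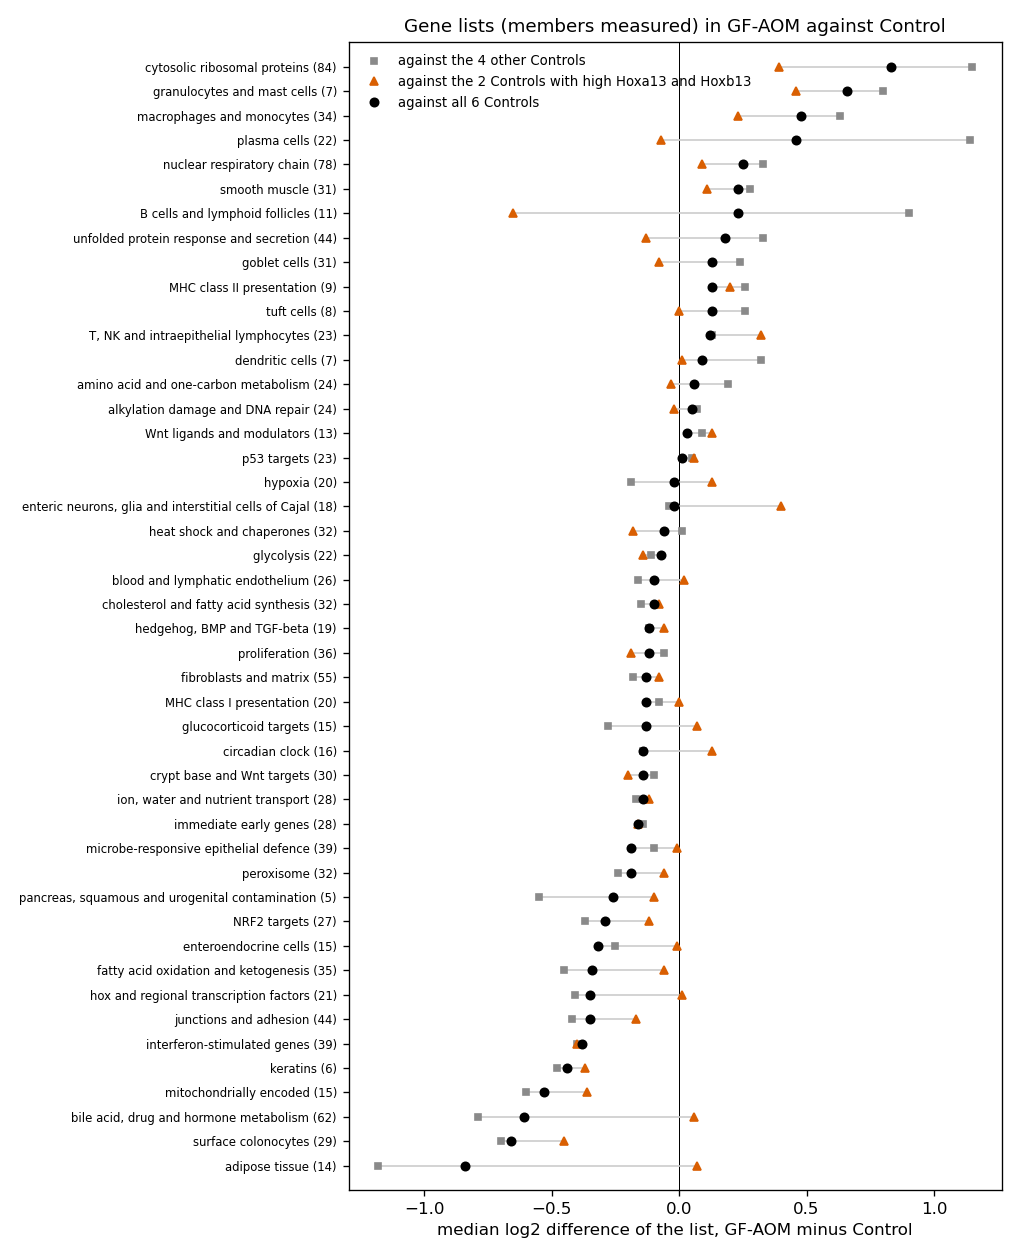
Median log2 difference (horizontal axis, GF-AOM minus Control) of each of 46 gene lists (vertical axis, with the number of members measured), against all Controls (black), the 2 high-Hox Controls (orange) and the 4 others (grey). Bile acid, drug and hormone metabolism and adipose tissue lie at -0.61 and -0.84 with all Controls and at 0.06 and 0.07 with the high-Hox Controls, whereas interferon-stimulated genes lie at -0.38 and -0.40.

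Antigen presentation was mixed. Class I genes had a median of -0.13, with the nonclassical genes H2-Q1 (-1.17, then -0.12) and H2-Q2 (-1.04, then 0.10), which have close copies, and the peptide transporter Tap2, which did not overlap (40.1 to 66.5 CPM, median 45.1, in Control and 26.1 to 38 CPM, median 34.6, in GF-AOM; -0.53 ± 0.17, then -0.40 ± 0.24). Class II genes were 6 of 9 higher and none was at an unadjusted p under 0.05 by edgeR or called by DESeq2. H2-Aa lay at 139 to 497 CPM, median 311, in Control and 298 to 850 CPM, median 344, in GF-AOM, H2-DMb1 was at 0.50 and then 0.90 and the protease Ctss at -0.23 and then -0.33.

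By their median difference, plasma cell genes were higher in GF-AOM with all Controls as reference and near 0 with the high-Hox ones. The groups overlapped, with a summed level of 3635 to 17891 CPM in Control and 14968 to 27752 CPM in GF-AOM. Of 22 members 17 were higher, 7 at an unadjusted p under 0.05 (5.98% of all genes), and the median was 0.46 and then -0.07. Jchain, which joins immunoglobulin A into dimers, lay at 2659 and 3706 CPM in the high-Hox Controls, 557 to 1931 CPM in the other 4 and 3153 to 6540 CPM, median 4370, in GF-AOM (1.26 ± 0.42, then 0.58 ± 0.55). Igha, the heavy chain of immunoglobulin A, lay at 1006 to 6266 CPM, median 3388, in Control and 3858 to 10403 CPM, median 4858, in GF-AOM (0.56 ± 0.45, then 0.20 ± 0.64). The groups overlapped for Igha, and the part of rearing in its level was not tested. The survival receptor Tnfrsf17 (1.38, then 0.54) and the secretory regulator Xbp1 (0.45, then 0.20) were the others with the smallest p of the list. Of 140 immunoglobulin variable segments 99 were higher in GF-AOM, 24 of them at an unadjusted p under 0.05 (5.98% of all genes), and 2 were lower at that level (9.74% of all genes), with a median of 0.61 and then 0.30. B cell and follicle genes turned with the Controls, from 0.23 to -0.65, and Cd79a (59.7 CPM) and the follicle chemokine Cxcl13 (47.5 CPM) were highest among Controls in replicate 2. Tnfrsf13b went from 0.65 to -0.05.

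Myeloid genes were 28 of 34 higher, 5 at an unadjusted p under 0.05 (5.98% of all genes), with a median of 0.48, then 0.23, and 0.10 with the length slope as a covariate. The fractalkine receptor Cx3cr1 of resident macrophages lay at 5.66 to 18.6 CPM, median 14.4, in Control and 17.7 to 35 CPM, median 21.5, in GF-AOM (0.78 ± 0.24, then 0.60 ± 0.36), the inhibitory receptor Sirpa was at 0.51 and then 0.36 and the antibody receptor Fcgr3 at 0.90 and then 0.51. Il34, a ligand of the macrophage growth factor receptor, did not overlap between groups at 5.37 to 11.5 CPM, median 7.75, in Control and 11.6 to 14.3 CPM, median 13.1, in GF-AOM, but its difference of 0.67 was 0.25 against the high-Hox Controls (10.3 and 11.5 CPM). Vcam1, the endothelial ligand for leukocytes, lay at 9.47 to 40 CPM, median 22.7, in Control and 33.4 to 85.3 CPM, median 49.2, in GF-AOM (1.12 ± 0.28, then 0.76 ± 0.39). The inhibitory receptors Cd300a (1.12, then 0.70) and Vsir (0.47, then 0.38) did not overlap and were chosen after their values were seen. Dendritic cell genes had a median of 0.09, with Clec4n at 0.76 and then 0.47, Itgax at 0.22 and then 0.01 and Irf8 at -0.16 and then 0.08. The 7 granulocyte and mast cell genes were few and scattered, with the gelatinase Mmp9 lower (6.23 to 12.3 CPM, median 7.58, in Control and 2.56 to 7.35 CPM, median 4.12, in GF-AOM; -0.94 ± 0.33, then -0.92 ± 0.45), Retnlg at 1.19 and then 0.64 and the mast cell protease Mcpt2 at 1.41 and then 0.63, where leaving out GF-AOM replicate 2 (41.3 CPM) gave -0.02 against all Controls. T and NK cell genes had a median of 0.12. Cd4 was at 0.41 and then 0.18, Cd2 at 0.68 and then -0.05, and the cytotoxic protease Gzmb at -1.63 and then 0.54, with 72.3 CPM in Control replicate 5 and at most 14.7 CPM in every other library.

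Stromal lists differed little. Smooth muscle genes were 24 of 31 higher (median 0.23, then 0.11), with a summed level of 4156 to 10169 CPM in Control and 7481 to 11296 CPM in GF-AOM; Tagln was at 0.77 and then 0.29, Csrp1 at 0.52 and then 0.20 and Hspb8 at 0.61 and then 0.48, and the muscle actin Acta2 lay at 368 to 902 CPM, median 549, in Control and 603 to 752 CPM, median 671, in GF-AOM. Fibroblast and matrix genes had a median of -0.13. Among them the protease Adamdec1 of subepithelial fibroblasts turned from -1.0 to 0.49, with 348 and 278 CPM in the high-Hox Controls and 556 to 1812 CPM in the others, and collagen Col1a1 was at -0.66 and then -0.53. In endothelium the adrenomedullin receptor subunit Ramp2 was at 1.09 ± 0.31 and then 1.06 ± 0.48, spread over 14.2 to 50.2 CPM, median 28.9, in GF-AOM, while Eng (-0.44, then -0.46) and Ecscr (0.87, then 0.38) had opposite signs. The neural and glial list had a median of -0.02 that became 0.40 against the high-Hox Controls, with 11 of 18 members higher there and 7 lower. Its members with the smallest p against all Controls went below 0 or stayed there. Erbb3 went from -0.89 to -0.02, L1cam from -0.88 to -0.12 and Thbs4 from 0.82 to -0.44. Of 32 listed genes of pancreas, squamous and urogenital tissue 5 were measured, among them Sprr1a at 3.36 to 22.8 CPM and Upk1b at 3.15 to 6.89 CPM in Control, and Acta1 at 8.92 to 154 CPM, median 56.4, in Control and 3.75 to 148 CPM, median 29, in GF-AOM.

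Among signalling genes, the inhibitors Smad6 (-0.85, then -0.40) and Smad7 (-0.53, then -0.05) and the ligand Bmp2 (12.9 to 28.6 CPM, median 25.3, in Control and 11.1 to 16.7 CPM, median 15.8, in GF-AOM; -0.60 ± 0.17, then -0.78 ± 0.22) were lower, within a hedgehog, BMP and TGF-beta list whose median was -0.12. Of these 3, only Bmp2 kept its size against the high-Hox Controls. The transcription factors Klf5 (-0.45, then -0.28), Elf3 (-0.41, then -0.08) and Cdx2 (-0.40, then -0.02) of the intestinal epithelium were lower by less. Hoxa11 did not overlap at 3.96 to 11.5 CPM, median 7.3, in Control and 13.5 to 25.4 CPM, median 14.6, in GF-AOM (1.23 ± 0.32, then 0.69 ± 0.43), and the overlapping antisense transcript Hoxa11os went from 1.74 to 0.40.

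A different pattern appeared in clock genes, where the high-Hox Controls stood apart from all other libraries. Tef, a transcription factor of the clock's output that binds D-box sites, lay at 16 and 21.1 CPM in the high-Hox Controls, 41.7 to 74.2 CPM in the other Controls and 57 to 99.9 CPM, median 73.4, in GF-AOM. It rose in GF-AOM against the high-Hox Controls by 2.02 ± 0.28 (adjusted p = 0.0176), the only gene called there by edgeR, a call that was lost without either of these Controls, and differed by 0.69 against all Controls. Its relative Dbp lay at 7.84 and 9.64 CPM, 28.8 to 35 CPM and 23.5 to 56.9 CPM, median 45.4, in the same order (0.83 ± 0.45, then 2.34 ± 0.59). The nuclear receptor genes Nr1d1 and Nr1d2, repressors within the clock, followed, Nr1d2 at 32.9 and 40.3 CPM, 70.9 to 87.2 CPM and 55.7 to 94.1 CPM, median 78.1 (0.27, then 1.10) and Nr1d1 with -0.44, then 0.93. Per1, a repressor arm gene, was at 0.62 and then 1.15, and Nfil3, which opposes Dbp and Tef at the D-box, at -0.60 and then -0.88. Of 16 clock genes 6 had an unadjusted p under 0.05 against the high-Hox Controls (3.16% of all genes) and 2 against all Controls (15.7%). The labels give no hour of tissue collection, so its part was not tested, and a contrast that uses these 2 Controls alone carries this difference with it.

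**Figure D5:**
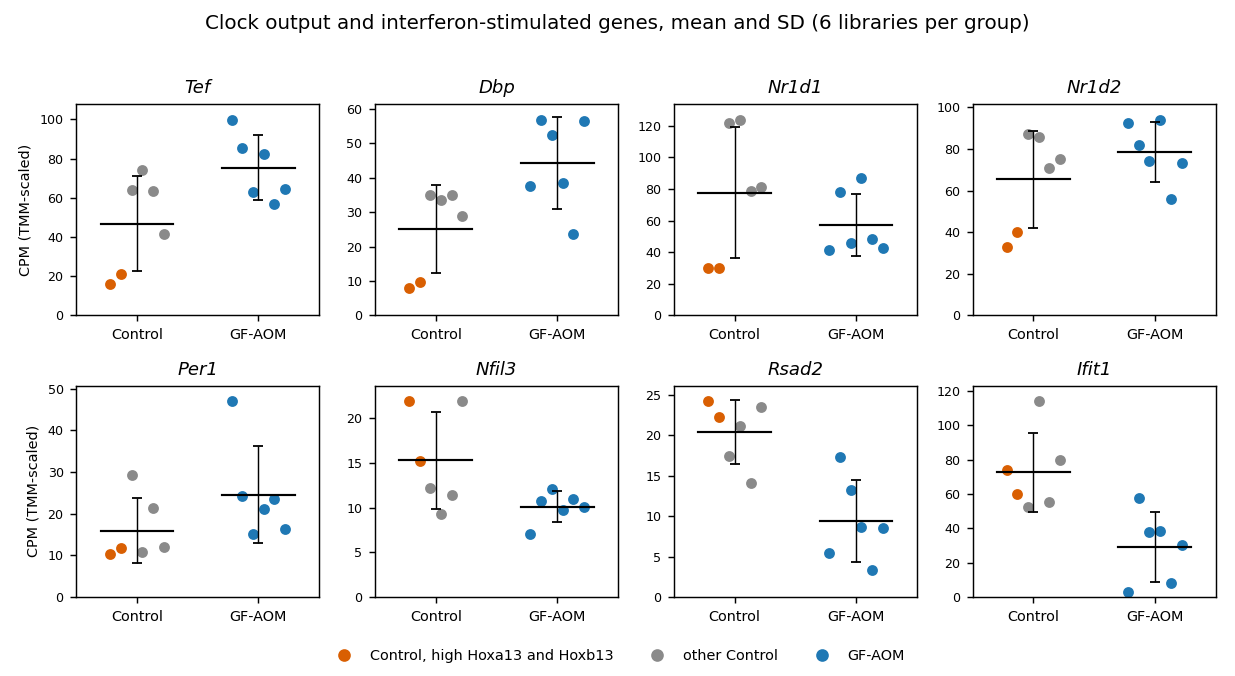
CPM per library of 6 clock genes and 2 interferon-stimulated genes, by group, with mean and SD. The 2 high-Hox Controls (orange) are the lowest libraries for Tef, Dbp, Nr1d1 and Nr1d2, and lie above every GF-AOM library for Rsad2 and Ifit1.

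The Tef window before its upstream RefSeq start (chr15:81802423-81802672, plus strand, build GRCm38.p6) is printed because Tef was the gene called. It holds the clock's E-box CACGTG, in capitals, a word that reads the same on both strands.
Tef: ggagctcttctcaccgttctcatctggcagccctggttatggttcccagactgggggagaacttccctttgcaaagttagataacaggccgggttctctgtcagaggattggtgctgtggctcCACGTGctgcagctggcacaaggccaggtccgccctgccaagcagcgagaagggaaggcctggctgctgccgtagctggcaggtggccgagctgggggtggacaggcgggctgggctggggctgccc
Among the 11 clock genes matched in RefSeq, 4 of 18 windows of 300 bases held this word (22.2%), in Tef, Per1 and Cry1, as did 7.15% of all windows. The word was chosen after the values were seen. Hox13 and Cdx proteins bind the words TTTATTG and TTTACGA. Of the 29 windows of surface colonocyte genes 2 and 0 held them (6.90% and 0.00%), 1 of the 2 being that of Aqp8. They were in 4.60% and 0.597% of all windows. TGACCTTTG, bound by nuclear receptors, was in 1 of the 29 (3.45%), that of Slc26a3, and in 0.478% of all windows. In the same order, these words were in 1, 1 and 0 of 63 windows for drug and bile acid genes. They were in 1, 1 and 0 of 31 for fatty acid oxidation and 2, 0 and 1 of 34 for interferon-stimulated genes. Clock genes had 0, 0 and 0 of 18, and genes without overlap 1, 0 and 2 of 77.

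Early response genes were lower by a median of -0.16, with Jund at -0.44 and then -0.35, Fosl2 at -0.69 and then 0.04 and Fos at 31.6 to 78.9 CPM, median 52.2, in Control and 23.3 to 41.2 CPM, median 35.5, in GF-AOM (-0.65, then -0.44). Glucocorticoid targets had no common sign, the feedback inhibitor Errfi1 at -0.65 ± 0.16 and then -0.31 ± 0.20, the mineralocorticoid receptor Nr3c2 at -0.65 and then -0.09 and the anti-inflammatory Tsc22d3 at 0.56 and then 0.55. Heat shock genes had a median of -0.06, with Hspa4l, which did not overlap, at -0.47 ± 0.17 and then -0.41 ± 0.24 and Hspd1 at -0.36 and then -0.43. Secretory stress genes were 31 of 44 higher (median 0.18, then -0.13). Herpud1, an adaptor of protein degradation at the endoplasmic reticulum, did not overlap at 105 to 160 CPM, median 137, in Control and 174 to 263 CPM, median 189, in GF-AOM (0.58 ± 0.14, then 0.41 ± 0.20), and the signal peptidase subunit Spcs3 was at 0.41 and then -0.05. Hypoxia genes (median -0.02) included Car12 (-1.05, then -0.02), Mxi1 (-0.42, then -0.10) and Pdk1 (0.37, then 0.58), and amino acid metabolism (median 0.06) the serine enzyme Psph (0.60, then 0.44), Oat (-0.30, then -0.16) and Otc (-0.83, then -0.15). The cold-induced RNA-binding protein Rbm3 lay at 248 to 485 CPM, median 305, in Control and 456 to 918 CPM, median 640, in GF-AOM (1.0 ± 0.21, then 0.85 ± 0.31). The purine enzyme Paics (0.54, then 0.32) and the torsin Tor2a (0.43, then 0.29) were the others among the higher genes with the smallest p.

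Abundant transcripts of the ribosome and of the mitochondrial genome lay on opposite sides. All 84 cytosolic ribosomal protein genes were higher in GF-AOM, 15 at an unadjusted p under 0.05 (5.98% of all genes), with a median of 0.83 that was 0.39 against the high-Hox Controls and 0.14 with the length slope as a covariate. The 2 high-Hox Controls were unlike each other here. Ribosomal protein genes made up 6.88% of counts in replicate 1 and 15.7% in replicate 2, and 7.94% to 19.6% in GF-AOM. Their length slopes were 0.59 and 0.433, so 0.39 averages 2 unlike libraries. Rps6 lay at 986 to 3916 CPM, median 1520, in Control and 1672 to 5429 CPM, median 4248, in GF-AOM with wide overlap, Rplp0 was at 0.81 and then 0.31 and Rpl21 at 0.59 and then 0.67, and ribosomal protein genes share reads with many pseudogene copies. Nuclear genes of the respiratory chain were 60 of 78 higher, with a median of 0.25 that turned to -0.13 with the length slope; Sdha was at -0.41 and then -0.21, Uqcrc2 at -0.23 and then -0.22 and Cox7a2l at 0.72 and then 0.57. Both lists hold many short transcripts, and their part in the length slope was not tested. Glycolysis had a median of -0.07, with Aldoa at -0.30 and then -0.21 and Pfkl at -0.68 and then 0.08.

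Genes of the mitochondrial genome were lower. Of 15 members 14 were lower, 8 at an unadjusted p under 0.05 (9.74% of all genes) and 5 without overlap (0.459% of all genes). DESeq2 called 7 (2.66% of the genes for which it gave an adjusted p). The median was -0.53, and it was -0.36 against the high-Hox Controls and -0.49 with the length slope as a covariate. The complex I subunit mt-Nd2 lay at 939 to 1331 CPM, median 1189, in Control and 701 to 877 CPM, median 787, in GF-AOM (-0.59 ± 0.13, adjusted p = 0.0798, then -0.57 ± 0.18). mt-Nd4l (-0.69, then -0.41) and mt-Nd5 (-0.82, then -0.51) had the next smallest p, and mt-Nd4, mt-Atp8 and mt-Cytb, at -0.56 and then -0.46, -0.53 and then -0.32 and -0.43 and then -0.36, also did not overlap. All 15 members were lower against the high-Hox Controls, 2 of them at an unadjusted p under 0.05 by edgeR (1.49% of all genes). These genes are transcribed as long joint precursors and are not independent of each other.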

How the data were processed

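Gene expression was measured by RNA sequencing in 18 libraries, 6 per group, of which the 12 labelled Control and GF-AOM are compared here. The authors deposited 1 table with raw read counts and FPKM values (fragments scaled by gene length and library size) for each library, per the file headers. The submitters' processing notes name featureCounts, DESeq2 and build GRCm39, without roles or versions; the gene positions in the table are those of GENCODE annotation of GRCm38, and the aligner is not given in the sources used here. Every gene in the deposited table had an FPKM of at least 1 in 15 or more of the 18 libraries, so a gene expressed in only 1 group could not enter.

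Counts were tested with edgeR 4.0.16 (R 4.3.3): TMM scaling, 3 group means over all 18 libraries, the quasi-likelihood test with 15 residual degrees of freedom, and Benjamini-Hochberg adjustment over 10897 genes at 0.05. CPM values use the same scaling. For the high-Hox comparison the Controls under 10 CPM in Hoxa13 or Hoxb13 formed a group of their own (14 residual degrees of freedom). Recovery of known changes was tested on simulated data. Alternatives used limma 3.58.1 on log2(FPKM + 1) and log2(FPKM + 0.1), DESeq2 1.42.0, other scalings, an FPKM minimum, a replicate block and left-out libraries. Library measures were compared by exact permutation tests. Genes were named by rule: those called, the 12 with the smallest p per direction with a mean FPKM of at least 2, the 3 with the smallest p of each list and 30 listed genes. The members and lists were chosen with earlier results of these data known. Some genes and lists that this rule names are not reported here. Promoter windows came from RefSeq (GRCm38.p6; 7886 of 10895 symbols matched).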

Additional observations from a re-analysis of the deposited data

Results flagged for a closer look

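In 40 of 418 sets of 6 values, 1 library lay apart from the other 5 of its group by more than the critical value of Dixon's test. For independent values with a normal distribution, chance flags about 1 in 20 sets, here 20.9. The CPM values were not transformed, and many of the genes share a list or were named for a small p. The 40 therefore do not show an excess over chance. Control replicate 1 was the highest of its group for Cry1 at 21.4 CPM. Control replicate 2 was the highest of its group for Cd2 at 13.3, Cd79a at 59.7, Cxcl13 at 47.5, Hoxb13 at 330 and Tor2a at 75.6 CPM and the lowest for Ctnnb1 at 418 CPM. Control replicate 3 was the highest of its group for Duox2 at 284 and Muc13 at 1433 CPM. Control replicate 4 was the highest of its group for Pfkl at 405 and Phyh at 195 CPM. Control replicate 5 was the highest of its group for Gzmb at 72.3 and H2-DMb1 at 91.2 CPM. Control replicate 6 was the highest of its group for Fabp4 at 224 and Lpl at 152 CPM. Control replicate 2, 1 of the 2 with high Hoxa13 and Hoxb13, had 6 such values, B cell and follicle genes among them.

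GF-AOM replicate 1 was the highest of its group for Herpud1 at 263, Pdk1 at 123, Per1 at 47 and mt-Nd5 at 1119 CPM and the lowest for Bmp2 at 11.1 CPM. GF-AOM replicate 2 was the highest of its group for Col1a1 at 107, Igha at 10403 and Mcpt2 at 41.3 CPM. GF-AOM replicate 3 was the lowest for Tubgcp3 at 29 CPM. GF-AOM replicate 4 was the highest of its group for AA986860 at 17.2, Fzd5 at 72.3, Gcnt3 at 174, Mxi1 at 73.3, Smad6 at 16 and Smad7 at 26.6 CPM. GF-AOM replicate 5 was the highest of its group for Cxcl13 at 51.9 and Rab32 at 53.1 CPM and the lowest for Elf3 at 215 CPM. GF-AOM replicate 6 was the highest of its group for Cd300a at 28.3, Cidec at 8.42, Cx3cr1 at 35, H2-Aa at 850, H2-DMb1 at 125, Reg3b at 843 and Sirpa at 66.8 CPM. GF-AOM replicate 4 had 6 and replicate 6 had 7. The differences of these genes rest in part on the library named, and no cause was tested.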

How the results depend on the processing

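With the RLE or upper-quartile scaling, an FPKM of at least 5 in 6 libraries (7273 genes) or the length slope as a covariate, 1 gene was called, Mcf2l. DESeq2 called 284, limma 0 at both pseudocounts (1469 and 1468 at an unadjusted p under 0.05) and the fit of the 12 libraries 0. Against the 4 Controls with little Hoxa13 699 were called and 2910 had an unadjusted p under 0.05, against the high-Hox Controls 344 had. Leaving out 1 library gave 0 to 356 calls, 1174 to 2968 genes at an unadjusted p under 0.05 and 97 to 447 genes without overlap, the last without Control replicate 2, while GF-AOM replicates 2 and 4 left out gave 162 and 191. Genes without overlap numbered 52 by FPKM, 636 with the high-Hox and 951 with the other Controls. On the same CPM values, fewer libraries can only raise this count, so a higher count does not show clearer separation. Within the high-Hox comparison, by alternatives chosen after seeing the data, DESeq2 called 5 genes (Tef, Dbp, Nr1d2, Pmaip1 and Tubgcp3), and leaving out Control replicate 1 or 2 gave 0 and 1. The cause of these moves was not tested. Replicate numbers are shared between groups, but same-numbered deviations correlated at -0.429 to 0.303 and only replicates 4 and 6 matched best with their own number. With the number as a replicate block 2 genes were called, AA986860 and Themis3, both lower, and 1773 had an unadjusted p under 0.05.

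Of 204 genes named, 166 kept their sign in every alternative that gave them a value. Fits that left out a GF-AOMS library or used the 12 libraries alone changed the spread and hardly the difference. They could scarcely reverse a sign, and many genes were named for a small p in these same data. Of the 38 genes with a reversed sign in any alternative, 30 had it against the high-Hox Controls. Against the high-Hox Controls these log2 differences took the other sign: Acta1 0.90, Adamdec1 0.49, Alox5ap -0.02, Aqp8 -0.58, Birc5 -0.11, Cd2 -0.05, Cd79a -0.78, Cidec 0.08, Cxcl13 -0.38, Cyp2c55 0.04, Fabp4 0.41, Fosl2 0.04, Fut2 0.14, Fzd5 0.13, Gcnt3 0.71, Gzmb 0.54, H2-Q2 0.10, Hoxb13 -0.92, Hoxb9 0.05, Irf8 0.08, Lpl 0.06, Muc2 0.08, Nr1d1 0.93, Pfkl 0.08, Reg3b 4.34, Reg3g 3.11, Slc26a3 -0.08, Spcs3 -0.05, Thbs4 -0.44 and Tnfrsf13b -0.05. Against the other Controls this held for Car4 0.28 and Nr1d2 -0.02, with the length slope for Acta2 -0.02, Axin2 0.01, Clec4n -0.02, H2-Aa -0.02 and Mki67 0.08, with limma for Reg3b 0.16 and Reg3g 0.13 (pseudocount 1) and Reg3b 0.20 and Reg3g 0.20 (0.1), and with the block for Reg3g 0.08. Leaving out 1 library moved across 0 the values of Acta1 -1.02 to 0.20, Car4 -0.26 to 0.13, Cd79a -0.01 to 1.58, Mcpt2 -0.02 to 1.71, Reg3b -2.36 to 0.45, Reg3g -1.18 to 0.43. None of these genes was called by edgeR against all 6 Controls. Hoxb13 was 1 of the 2 genes that chose the high-Hox Controls, so its value against them is in part fixed by that choice.

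The high-Hox comparison rests on 2 Controls, and these libraries also differ from the rest in clock genes. Germ-free rearing and AOM cannot be told apart under the 2 label readings, and what sets the 2 high-Hox Controls apart was not tested. Counting error at this depth was not separated from the spread between libraries.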
